A study of Mus musculus with 6 samples.

Results

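Integrins and the proteins of focal adhesions were followed as 37 named genes, chosen by symbol from lists of the family and of its cytoplasmic partners, out of 24062 gene symbols counted in each library. They comprised 18 integrin chains and 19 adaptor, kinase and actin-linking proteins. The libraries came from bone marrow of C57BL/6J mice, plated with GM-CSF at 20 ng/ml and fed on days 3, 6 and 10, with growth on a substrate of 50 kPa (high tension, 3 libraries) or of 2 kPa (low tension, 3 libraries). The stiffness was the labelled difference between the groups, and GM-CSF, strain and feeding were shared. The design text likens the stiffer substrate to fibro-inflammatory disease and the softer one to physiological tissue. The titles name dendritic cells, and since no sort is named, each value is an average over every cell type of the culture. In such bulk samples fewer cells of a type and less RNA per cell cannot be told apart.

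Integrins are receptors made of an alpha and a beta chain that span the membrane, bind matrix or other cells outside, and connect to actin inside. Talin and kindlin bind the tail of the beta chain and switch the receptor on, and kinases such as FAK together with paxillin, vinculin, zyxin and alpha-actinin build the adhesion that carries force. In myeloid cells the β2 integrins CD11a, CD11b and CD11c serve adhesion, migration and uptake, and CD11c is the usual surface marker of cultured dendritic cells.

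Each library held 33.8 M to 36.3 M counts. High tension replicates 1 and 2 were far more alike than any other pair of a group, their counts giving a chi-square per degree of freedom of 6.71, where the remaining within-group pairs gave 126 to 233. High tension replicate 3 (8.06) and low tension replicate 1 (-13.1) lay between the other libraries on the first principal component, which ran over 54.5 and 59.5 for the other high tension libraries and -57.4 and -51.5 for the other low tension libraries. Whether the replicates are separate cultures or animals is not stated in the labels, and p-values therefore measure the spread between these libraries, which may be technical. Levels are given as CPM, counts scaled to the TMM-normalised library size, and a log2 fold change is 50 kPa over 2 kPa with its standard error. A gene was called when its edgeR quasi-likelihood p, adjusted by Benjamini-Hochberg over the 13155 genes tested, lay under 0.05. Markers of the titled cells were present, with the summed CPM of 12 dendritic cell genes at 10737 to 15195 under high tension and 5083 to 9387 under low tension. By gene 7 of the 12 had negative fold changes (median log2 -0.41). None was called by edgeR, and of 8 at an unadjusted p under 0.05, as of 8 called by DESeq2, 2 were higher and 6 lower. Over all tested genes 27.8% had an unadjusted p under 0.05 and 18% were called by DESeq2. The sum of 11 macrophage genes was 4130.0 to 5173 under high tension and 1477 to 3388 under low tension.

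Of the 37 genes, 35 had enough counts to be tested, and the exceptions were Itga9 and Parva. Under high tension 2 of 17 tested integrin chains fell, Itgb3 and Itgb8, and 0 rose. None of the 18 tested focal adhesion proteins passed the edgeR test. Over all tested genes 3.45% were called, 1.47% higher and 1.98% lower. The median log2 fold change was -0.11 for the integrin chains and -0.080 for the focal adhesion proteins, beside -0.028 over all tested genes.

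Promoter windows are shown for integrin genes whose levels the results turn on, namely Itgb8, which fell, and Itgam and Itgax, which lie next to each other on chromosome 7 and stood above their 2 kPa levels in every 50 kPa library. Each is a RefSeq window of 300 bases around the start annotated there (GRCm38.p6), written 5′ to 3′ on the gene's strand, with matches to the motifs searched in capitals. The Itgb8 window lies wholly inside the gene as annotated by GENCODE, whose 5′ end is at 119238802, and so does not cover that start. The Itgam and Itgax windows do cover their GENCODE starts.
Itgb8, chr12:119238227-119238526, minus strand: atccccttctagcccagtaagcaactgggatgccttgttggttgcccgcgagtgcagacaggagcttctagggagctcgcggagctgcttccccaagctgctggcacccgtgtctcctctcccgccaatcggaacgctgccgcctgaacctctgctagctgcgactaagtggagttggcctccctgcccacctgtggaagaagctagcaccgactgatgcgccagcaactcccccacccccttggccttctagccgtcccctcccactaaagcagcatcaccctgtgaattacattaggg
Itgam, chr7:128062390-128062689, plus strand: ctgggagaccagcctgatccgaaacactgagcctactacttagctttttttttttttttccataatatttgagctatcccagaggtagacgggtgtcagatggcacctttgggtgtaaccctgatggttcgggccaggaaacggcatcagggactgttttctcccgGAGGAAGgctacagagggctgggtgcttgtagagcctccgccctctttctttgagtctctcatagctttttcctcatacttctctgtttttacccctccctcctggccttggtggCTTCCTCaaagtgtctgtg
Itgax, chr7:128129300-128129599, plus strand: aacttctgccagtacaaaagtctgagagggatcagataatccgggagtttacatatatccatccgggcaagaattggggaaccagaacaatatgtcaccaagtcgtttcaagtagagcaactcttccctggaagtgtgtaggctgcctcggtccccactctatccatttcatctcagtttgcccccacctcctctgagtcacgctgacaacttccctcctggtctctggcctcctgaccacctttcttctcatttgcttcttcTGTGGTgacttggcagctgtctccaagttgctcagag
The letters searched on both strands were GAGGAAG for the myeloid factor PU.1, ACCACA for RUNX factors, GGAATG for TEAD factors, and the CArG box of SRF. No pair of these motifs overlapped in the windows shown. The Itgam window held the PU.1 letters at positions 167 to 173 and 282 to 288, and the Itgax window the RUNX letters at positions 264 to 269, counted from 1 at the 5′ end. The Itgb8 window held none of the letters. Among 32851 promoter windows 13.6% held the PU.1 letters, 16.8% the RUNX letters, 14.7% the TEAD letters and 1.63% the CArG box. Of the 34 windows of the set, 6, 7, 4 and 1 held them in that order of motifs, and the CArG box was in the window of Vcl. These windows belonged to 28 genes of the set, some with more than 1 window. Itgb2 and Itgb3 had no window. A match is only a description of the sequence, and an absent match says nothing of the factor.

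The β2 family carried the most integrin transcript. Per kb of annotated exon, Itgb2 was the highest of the 18 chains at 579 ± 50.5 CPM per kb under high tension and 359 ± 90.4 CPM per kb under low tension. Under high tension Itgax followed at 499 ± 178 CPM per kb and Itgam at 347 ± 32.8 CPM per kb, and Itgax overlapped with both neighbours within the SDs. Under low tension Itgam (242 ± 33.7), Itgb1 (178 ± 55.4) and Itgax (167 ± 91.4 CPM per kb) followed, and each neighbouring pair from Itgb2 down to Itgax overlapped within its SDs. The lowest chains on this scale were Itgb8, Itga9, Itga2 and Itga3, each under 1 CPM per kb in both groups.

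Itgb2 encodes the β2 chain (CD18) that pairs with all the CD11 chains (chromosome 10, 77530252 to 77565708 of GRCm38, plus strand). It stood at 1844, 1865 and 1588 CPM under high tension and at 1152, 795 and 1338 CPM under low tension. Every 50 kPa library lay above every 2 kPa library, and the log2 fold change of 0.69 ± 0.23 was not called by edgeR (adjusted p = 0.12). Itgam encodes CD11b, the chain of the complement receptor CR3 on myeloid cells (chromosome 7, 128062640 to 128118491, plus strand). It stood at 1653, 1644 and 1934 CPM under high tension, against 1029.9, 1261 and 1359.9 CPM under low tension. These groups did not overlap either, and the log2 fold change was 0.52 ± 0.17 (edgeR adjusted p = 0.122).

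Itgax encodes CD11c and starts 11.1 kb downstream of the end of Itgam (chromosome 7, 128129547 to 128150657, plus strand). It stood at 2825, 2958 and 1412 CPM under high tension and at 1109, 299 and 996 CPM under low tension. High tension replicate 3 sat closest to the 2 kPa libraries, and low tension replicate 2 was the lowest of all. The log2 fold change was 1.58 ± 0.54 (edgeR adjusted p = 0.13), and 1.19 to 1.89 when single libraries were left out. DESeq2 called Itgb2, Itgam and Itgax higher at adjusted p-values of 0.0276, 0.0143 and 0.0182, where 18% of all genes were called. Itgal, the CD11a chain of LFA-1, averaged 218 ± 15.9 CPM under high tension and 214 ± 75.7 CPM under low tension, a log2 fold change of 0.03 ± 0.25 whose sign turned with total-count scaling (-0.076) and without high tension replicate 3, low tension replicate 1 or low tension replicate 2 (-0.033, -0.13 and -0.096).

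Neutrophils also carry CD11b and CD18. The 15 neutrophil marker genes in the files summed to 4012 to 4317 CPM under high tension and 5671 to 9402 CPM under low tension. Of these 7 were called lower by edgeR, beside 3.45% of all tested genes called, and none was at 0 counts in every library. By fold change 14 of the 15 were below 0 and 1 above, and DESeq2 called 12 lower and 1 higher. Macrophage markers gave 0 calls of 11 by edgeR, with 7 at an unadjusted p under 0.05, all with positive fold changes, and 5 called higher by DESeq2. By fold change 9 of the 11 were above 0 and 2 below. Over all tested genes 27.8% had an unadjusted p under 0.05 and 18% were called by DESeq2. The part of either cell type in the β2 integrin values was not tested.

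**Figure D1:**
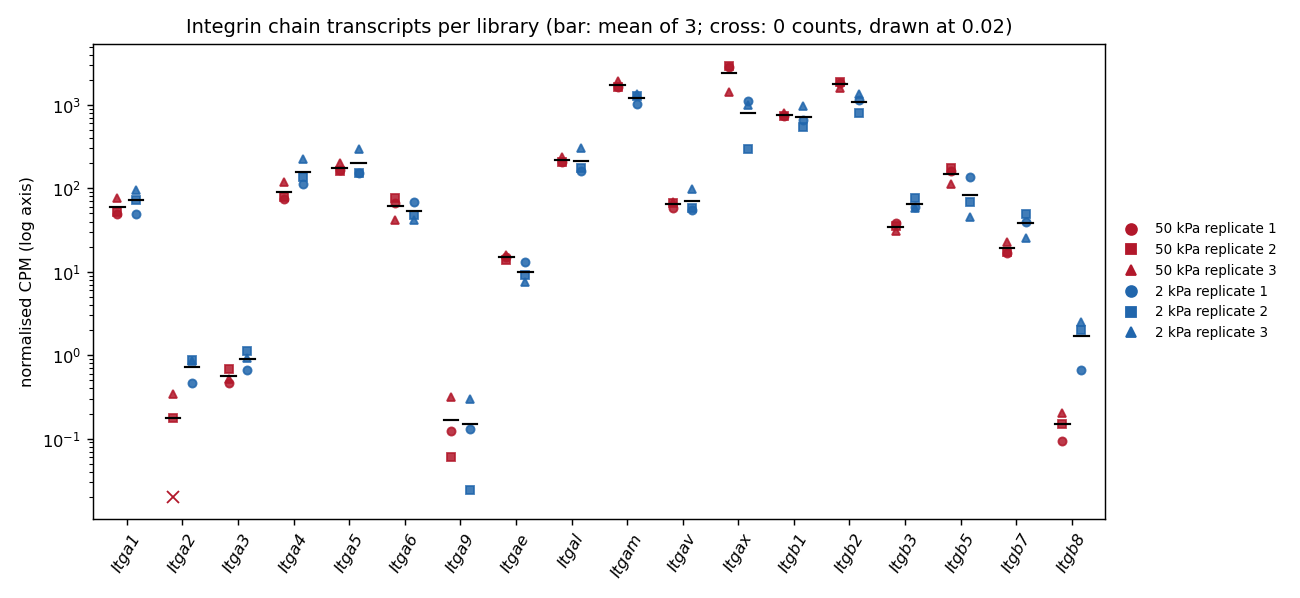
Normalised CPM (log axis) of the 18 integrin chains in each library, with 50 kPa in red to the left of 2 kPa in blue and a bar at each mean of 3. Itgb2, Itgam and Itgax are highest and stand apart between the groups, Itgb3, Itgb7 and Itgb8 are lower under high tension, and the cross marks the 50 kPa library with 0 counts of Itga2.

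Of the beta chains of the followed set that partner αV, Itgb3 and Itgb8 were called and Itgb1 and Itgb5 were not. Itgb6, a further αV partner outside the set, made up at most 0.0122% of the CPM per kb of the αV partner chains in any library. Itgb3 encodes the β3 chain of the vitronectin receptor αVβ3 and, with αIIb, of the platelet fibrinogen receptor (chromosome 11, 104608000 to 104670476, plus strand). It stood at 38.0, 34.9 and 30.8 CPM under high tension and at 59.4, 77.0 and 58.2 CPM under low tension, so the groups did not overlap. It fell to a mean of 34.6 ± 3.64 CPM under high tension, against 64.9 ± 10.52 CPM under low tension, a log2 fold change of -0.91 ± 0.15 (edgeR adjusted p = 0.0381). The fold change lay between -0.98 and -0.77 when each library was left out in turn. The call was lost without high tension replicate 1, 2 or 3 (adjusted p = 0.18, 0.181 and 0.0568) and when low tension replicate 2 or 3 was left out (0.0924 and 0.0546), and with the filter of at least 5 CPM in 3 libraries (0.0577).

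Itgb8 encodes the β8 chain, which with αV binds latent TGF-beta and enables its activation (chromosome 12, 119158022 to 119238802, minus strand). It gave 3, 5 and 7 counts under high tension (0.0933, 0.149 and 0.203 CPM) and 26, 83 and 83 counts under low tension (0.673, 1.99 and 2.49 CPM). All 50 kPa libraries lay below the lowest 2 kPa library, at levels where counting error adds to the spread. It fell with a log2 fold change of -3.49 ± 0.61, 11.3-fold lower under high tension (edgeR adjusted p = 0.0444). By limma-voom it was not called (adjusted p = 0.0634), and it did not pass the filter of at least 5 CPM in 3 libraries. The call was lost without high tension replicate 1, 2 or 3 (adjusted p = 0.206, 0.198 and 0.0647) and when low tension replicate 2 or 3 was left out (0.115 and 0.0656), with fold changes from -3.87 to -3.13. With high tension replicates 1 and 2 summed into 1 sample Itgb3 and Itgb8 stood at -0.93 and -3.42 (adjusted p = 0.163 and 0.187).

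Itgb5 encodes the β5 chain of αVβ5, a vitronectin receptor of macrophages and dendritic cells that also acts in uptake of dying cells. It stood at 160.4, 178 and 113 CPM under high tension and at 138, 68.4 and 45.3 CPM under low tension. Low tension replicate 1 lay within the 50 kPa range, and the log2 fold change was 0.84 ± 0.42 (edgeR adjusted p = 0.24). Itgav, the αV chain shared by β1, β3, β5, β6 and β8, averaged 64.6 ± 5.25 CPM under high tension and 69.7 ± 23.9 CPM under low tension, at -0.11 ± 0.23. Its sign turned without low tension replicate 3 (0.21).

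The ratio of Itgb5 to Itgb3 CPM within a library does not depend on how libraries are scaled. It was 4.22, 5.09 and 3.66 under high tension and 2.32, 0.888 and 0.778 under low tension, without overlap. On the log2 scale the means were 2.10 ± 0.24 under high tension and 0.23 ± 0.86 under low tension, a difference of 1.87 (2-sided exact permutation p = 0.1, which is the lowest possible with 3 libraries a group; adjusted p = 0.143 over 10 ratios). The ratio of Itgb8 to Itgb5 had log2 means of -10.0 ± 0.83 under high tension and -5.65 ± 1.81 under low tension, also without overlap (exact permutation p = 0.1, adjusted p = 0.143).

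Itga2b encodes αIIb, the platelet partner of β3, and is a megakaryocyte marker. It stood at 8.68, 8.66 and 22.6 CPM under high tension and at 63.3, 99.8 and 64.4 CPM under low tension. It fell with a log2 fold change of -2.51 ± 0.44 (edgeR adjusted p = 0.0444). Of the alpha chains that can pair with β3, Itgav made up 77.4%, 79.8% and 60.4% of CPM per kb under high tension and 30.4%, 22.6% and 43.4% under low tension. The mean share was 72.5 ± 10.6% under high tension and 32.1 ± 10.49% under low tension (exact permutation p = 0.1, adjusted p = 0.186 over 13 shares). The 9 megakaryocyte markers, which include Itga2b itself, summed to 81.9 to 247 CPM under high tension and 236 to 398 CPM under low tension. Of the 9, 5 were called lower, Itga2b among them, and none was at 0 in every library. Osteoclasts carry αVβ3 too, and of 7 tested osteoclast markers edgeR called 1, Ocstamp, higher under high tension, beside 3.45% of all tested genes. By fold change 5 of the 7 were above 0 and 2 below. DESeq2 called 2 of them higher and 1 lower, beside 18% of all genes called. The 9 listed summed to 958 to 1327 CPM under high tension and 436 to 1002 CPM under low tension. The part of either cell type in the Itgb3 values was not tested.

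Among the leukocyte chains of the β7 group, αEβ7 binds E-cadherin and α4β7 and α4β1 bind MAdCAM and VCAM. Itgb7 (chromosome 15, 102215995 to 102231944, minus strand) stood at 16.9, 17.3 and 22.8 CPM under high tension and at 39.4, 49.4 and 25.6 CPM under low tension. The groups did not overlap, though low tension replicate 3 came close, and the log2 fold change was -1.01 ± 0.26 (edgeR adjusted p = 0.0799; DESeq2 adjusted p = 0.00482). Itgae, the αE chain CD103 of some dendritic cells, stood at 15.1, 13.9 and 15.7 CPM under high tension and at 12.97, 9.11 and 7.54 CPM under low tension. Here each 50 kPa library was the higher, at 0.59 ± 0.21 (edgeR adjusted p = 0.14).

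Itga4, the α4 chain, stood at 74.2, 78.5 and 120.2 CPM under high tension and at 111, 135 and 225 CPM under low tension. High tension replicate 3 overlapped the 2 kPa range, and the log2 fold change was -0.79 ± 0.31 (edgeR adjusted p = 0.169). Of the CPM per kb of Itga4 and Itgae together, Itgae made up 38.3%, 35.0% and 28.6% under high tension and 26.2%, 17.1% and 9.26% under low tension. These shares did not overlap (exact permutation p = 0.1, adjusted p = 0.186). The ratio of Itgb7 to Itgb1 overlapped between groups, with log2 means of -5.33 ± 0.16 under high tension and -4.26 ± 0.92 under low tension (exact permutation p = 0.2, adjusted p = 0.222). B cells, mast cells and T cells also express β7. B cell markers summed to 8.001 to 19.6 CPM under high tension and 84.2 to 159 CPM under low tension with 7 of 9 called lower. Basophil and mast cell markers summed to 162 to 222 CPM under high tension and 332 to 806 CPM under low tension, with 0 of 9 called by edgeR, 8 at an unadjusted p under 0.05 and 7 called by DESeq2. T and NK cell markers summed to 5.01 to 7.31 CPM under high tension and 5.80 to 12.6 CPM under low tension (0 of 7 called by edgeR, 3 at an unadjusted p under 0.05, 1 by DESeq2). Over all tested genes the shares were 3.45% called by edgeR, 27.8% at an unadjusted p under 0.05 and 18% called by DESeq2. None of these lists had a defining marker at 0 in every library, and their part in the Itgb7 values was not tested.

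**Figure D2:**
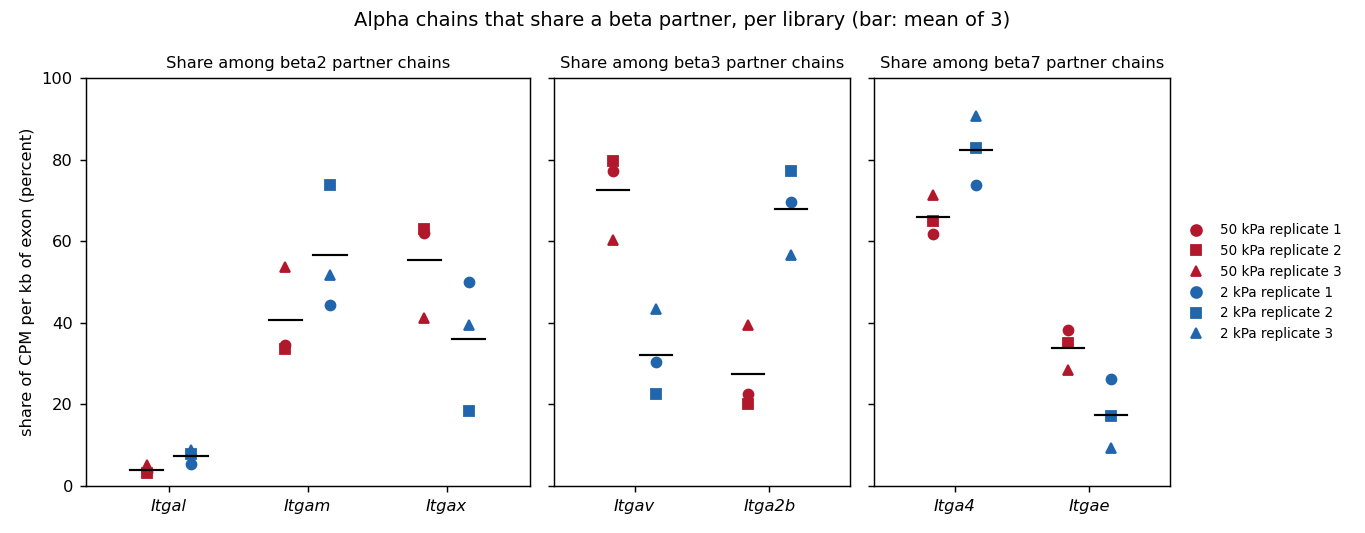
Share of CPM per kb of exon (percent) that each alpha chain takes among the chains pairing with β2, β3 or β7, per library, with 50 kPa left of 2 kPa and a bar at each mean of 3. Itgav and Itgae take larger shares in every 50 kPa library and Itgal a smaller one, while the Itgam and Itgax shares overlap. The CPM of Itgav and Itgal themselves overlapped between groups, at log2 fold changes of -0.11 ± 0.23 and 0.03 ± 0.25.

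Within the β2 partners, Itgax took 62.0%, 63.2% and 41.1% of CPM per kb under high tension and 50.1%, 18.3% and 39.6% under low tension, with overlap (exact permutation p = 0.2, adjusted p = 0.26). Itgal took 3.33%, 3.27% and 5.03% under high tension and 5.40%, 7.94% and 8.75% under low tension, without overlap (exact permutation p = 0.1, adjusted p = 0.186). The ratio of Itgal to Itgam was 0.126, 0.127 and 0.122 under high tension and 0.159, 0.141 and 0.221 under low tension, without overlap (exact permutation p = 0.1, adjusted p = 0.143). That of Itgax to Itgam had log2 means of 0.39 ± 0.73 under high tension and -0.81 ± 1.14 under low tension and overlapped (exact permutation p = 0.3).

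Among the matrix-binding β1 integrins, Itgb1, Itga5, Itga6 and Itga1 had overlapping groups, and Itga2, Itga3 and Itga9 were near the detection limit. Itgb1, the common β1 chain, stood at 726, 744 and 810.0 CPM under high tension and at 655, 542 and 978 CPM under low tension, a log2 fold change of 0.07 ± 0.23 that turned to -0.034 with total-count scaling and to -0.11 without low tension replicate 2. Itga5, the fibronectin receptor chain, averaged 177 ± 22.4 CPM under high tension and 199.9 ± 82.8 CPM under low tension (-0.18 ± 0.29; 0.22 without low tension replicate 3). Itga6, a laminin receptor chain, was at 0.20 ± 0.27 and Itga1, a collagen receptor chain, at -0.27 ± 0.28. Their edgeR adjusted p-values lay between 0.548 and 0.864. Itga2, the collagen receptor chain also found on platelets, gave 0, 6 and 12 counts under high tension and 18, 37 and 28 counts under low tension, and its groups did not overlap (-2.02 ± 0.79, edgeR adjusted p = 0.166). Itga3, a laminin receptor chain, was under 1.2 CPM throughout at -0.70 ± 0.30 (edgeR adjusted p = 0.191). Itga9, a receptor chain for tenascin C and osteopontin, had 4, 2 and 11 counts under high tension and 5, 1 and 10 counts under low tension and was not tested.

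In all, 8 of 17 tested integrin chains (47.1%) had groups that did not overlap, 4 with 50 kPa above and 4 below, against 34.1% of all tested genes (17.2% above and 16.9% below). At an unadjusted p under 0.05 there were 9 of 17, against 27.8% of all tested genes. The spread under low tension was wider, with a median coefficient of variation of 17.3% under high tension and 31.6% under low tension over the tested chains. Low tension replicate 3 held the highest of the 6 levels for 7 of the 17 chains, and the median log2 fold change of the chains was 0.21 without it.

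**Figure D3:**
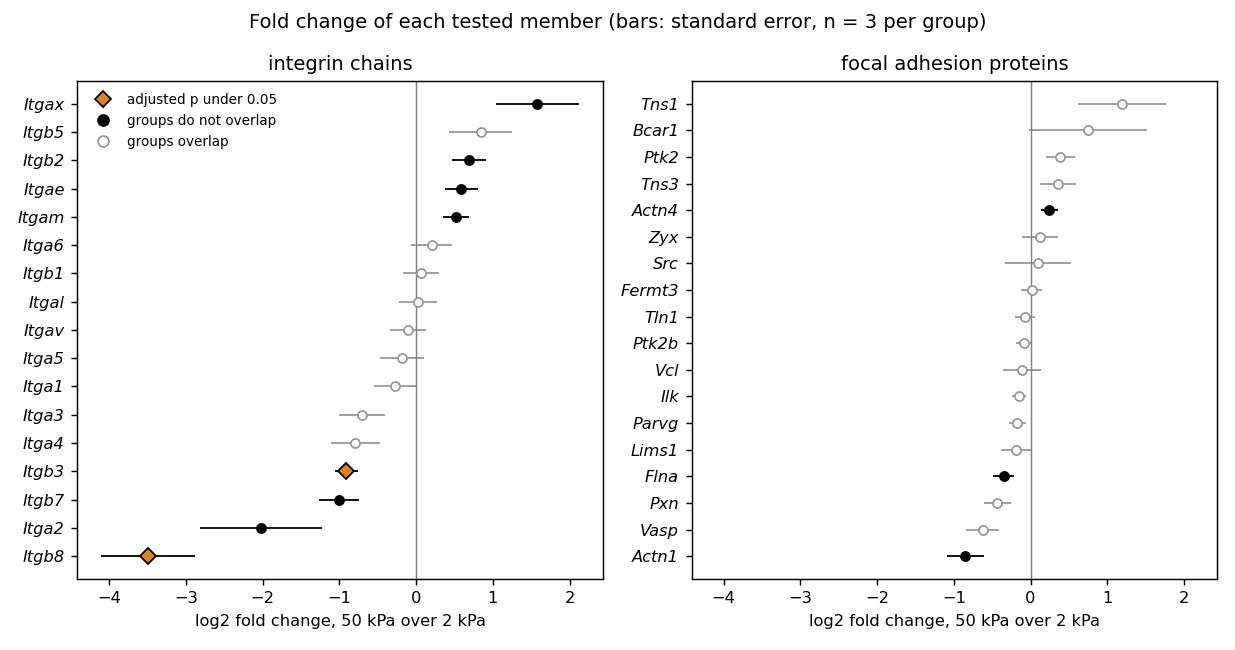
Log2 fold change, 50 kPa over 2 kPa, with standard errors (n = 3 per group) for the 17 tested integrin chains and the 18 tested focal adhesion proteins. Filled points have groups that do not overlap, and the diamonds at -0.91 (Itgb3) and -3.49 (Itgb8) mark the genes called by edgeR.

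The log2 fold changes of the 18 tested proteins that couple integrins to actin ran from -0.85 (Actn1) to 1.196 (Tns1). By edgeR 0 of 18 were called, with 4 at an unadjusted p under 0.05, all with negative fold changes (22.2%, against 27.8% of all tested genes). DESeq2 called 1, Actn1, where 18% of all genes were called. Limma-voom called 0, where 194 of 13155 genes were called higher and 236 lower. Of the 18, 3 had groups that did not overlap (16.7%, against 34.1% of all tested genes). Per kb of exon the highest were Vasp, Zyx and Flna under high tension (114 ± 22.1, 80.6 ± 1.67 and 73.2 ± 3.12 CPM per kb) and Vasp, Flna and Zyx under low tension (176 ± 39.2, 93.3 ± 11.1 and 73.9 ± 23.1 CPM per kb), where Flna and Zyx overlapped within their SDs.

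The actin crosslinkers held all 3 tested genes without overlap. Actn1, alpha-actinin-1, stood at 145, 139.9 and 194 CPM under high tension and at 209, 282 and 370.1 CPM under low tension. High tension replicate 3 was nearest to the 2 kPa libraries, and the log2 fold change was -0.85 ± 0.24 (edgeR adjusted p = 0.0947; DESeq2 adjusted p = 0.0157). Actn4, alpha-actinin-4, stood at 212, 211 and 189.6 CPM under high tension and at 168, 162 and 188 CPM under low tension. Here each 50 kPa library was the higher by a small margin, at 0.24 ± 0.11 (edgeR adjusted p = 0.196). The ratio of Actn1 to Actn4 was 0.68, 0.664 and 1.02 under high tension and 1.25, 1.74 and 1.97 under low tension. All 2 kPa libraries had the higher ratio, with log2 means of -0.37 ± 0.35 under high tension and 0.70 ± 0.34 under low tension (exact permutation p = 0.1, adjusted p = 0.143). Flna, filamin A, stood at 658, 689 and 716 CPM under high tension and at 770.3, 881 and 979.5 CPM under low tension, at -0.35 ± 0.14 (edgeR adjusted p = 0.172). Annotated exons of the opposite strand cover 8.15% of the Actn1 and 5.16% of the Actn4 exon length.

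Vasp, which promotes actin filament growth at adhesions, stood at 271, 259 and 365 CPM under high tension and at 364, 446 and 568 CPM under low tension (-0.62 ± 0.22, edgeR adjusted p = 0.134). High tension replicate 3 and low tension replicate 1 lay within 1 CPM of each other. Pxn, the scaffold paxillin, averaged 126 ± 22.3 CPM under high tension and 170.1 ± 27.1 CPM under low tension (-0.43 ± 0.18, edgeR adjusted p = 0.176). Zyx, the tension-sensitive LIM protein zyxin, averaged 434 ± 9.02 CPM under high tension and 398 ± 125 CPM under low tension (0.13 ± 0.23; -0.078 without low tension replicate 2). Vcl, vinculin, which binds talin when it is stretched, averaged 86.7 ± 19.6 CPM under high tension and 93.7 ± 25.0 CPM under low tension (-0.11 ± 0.25). The sign of Vcl turned when high tension replicate 3 (0.067) or low tension replicate 3 (0.11) was left out, and 25.5% of its exon length overlaps Ap3m1 on the opposite strand.

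The activators of integrins had overlapping groups. Tln1, talin-1, averaged 494 ± 27.9 CPM under high tension and 520.0 ± 60.3 CPM under low tension (-0.07 ± 0.13; 0.016 without low tension replicate 3). Fermt3, the haematopoietic kindlin-3, averaged 191 ± 25.2 CPM under high tension and 189 ± 18.3 CPM under low tension (0.02 ± 0.14). Its sign turned with total-count scaling (-0.12), and when high tension replicate 3 (-0.087) or low tension replicate 1 (-0.040) was left out. Ilk, Lims1 and Parvg encode the integrin-linked kinase, PINCH1 and gamma-parvin, which form a complex at the beta tail. Ilk was at -0.15 ± 0.09 (edgeR adjusted p = 0.293), Lims1 at -0.19 ± 0.19 (0.045 without low tension replicate 3) and Parvg at -0.17 ± 0.12. Exons of Rrp8 and Taf10 on the opposite strand cover 89.7% of the Ilk exon length, so its counts may hold reads of both strands. Parva, the parvin of non-haematopoietic cells, had 1, 1 and 8 counts under high tension and 10, 23 and 16 counts under low tension and was too low to test.

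Among the kinases and their scaffold, Ptk2b, the FAK relative Pyk2, was the abundant form at 147 ± 9.87 CPM under high tension and 156 ± 11.4 CPM under low tension (-0.09 ± 0.10). Ptk2, FAK itself, stood at 15.1, 15.9 and 12.4 CPM under high tension and at 11.8, 8.56 and 12.8 CPM under low tension (0.39 ± 0.19, edgeR adjusted p = 0.231). Per kb of exon Ptk2b was at 19.8 ± 1.33 under high tension and 21.1 ± 1.54 CPM per kb under low tension, and Ptk2 at 1.22 ± 0.16 and 0.93 ± 0.19 CPM per kb in that order of groups. The ratio of Ptk2 to Ptk2b was 0.104, 0.115 and 0.0785 under high tension and 0.0773, 0.0583 and 0.0756 under low tension. It did not overlap, by a margin set by high tension replicate 3 (exact permutation p = 0.1, adjusted p = 0.143). Src averaged 85.4 ± 29.5 CPM under high tension and 79.9 ± 46.0 CPM under low tension (0.10 ± 0.43), with its sign turned without high tension replicate 3, low tension replicate 1 or low tension replicate 2 (-0.22, -0.18 and -0.064). Bcar1, the scaffold p130Cas, was low at 2.77, 3.25 and 0.463 CPM under high tension and 1.89, 0.48 and 1.502 CPM under low tension (0.75 ± 0.77).

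The tensins link integrin tails to actin in fibrillar adhesions. Tns1 stood at 219, 245 and 124 CPM under high tension and at 156, 32.6 and 68.2 CPM under low tension. High tension replicate 3 lay under low tension replicate 1, and the log2 fold change of 1.196 ± 0.57 was the largest among the tested focal adhesion proteins without being called (edgeR adjusted p = 0.229). Tns3 averaged 109 ± 15.4 CPM under high tension and 85.2 ± 25.0 CPM under low tension (0.36 ± 0.24, edgeR adjusted p = 0.355). The ratio of Tns1 to Tns3 overlapped between groups (exact permutation p = 0.2, adjusted p = 0.222).

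**Figure D4:**
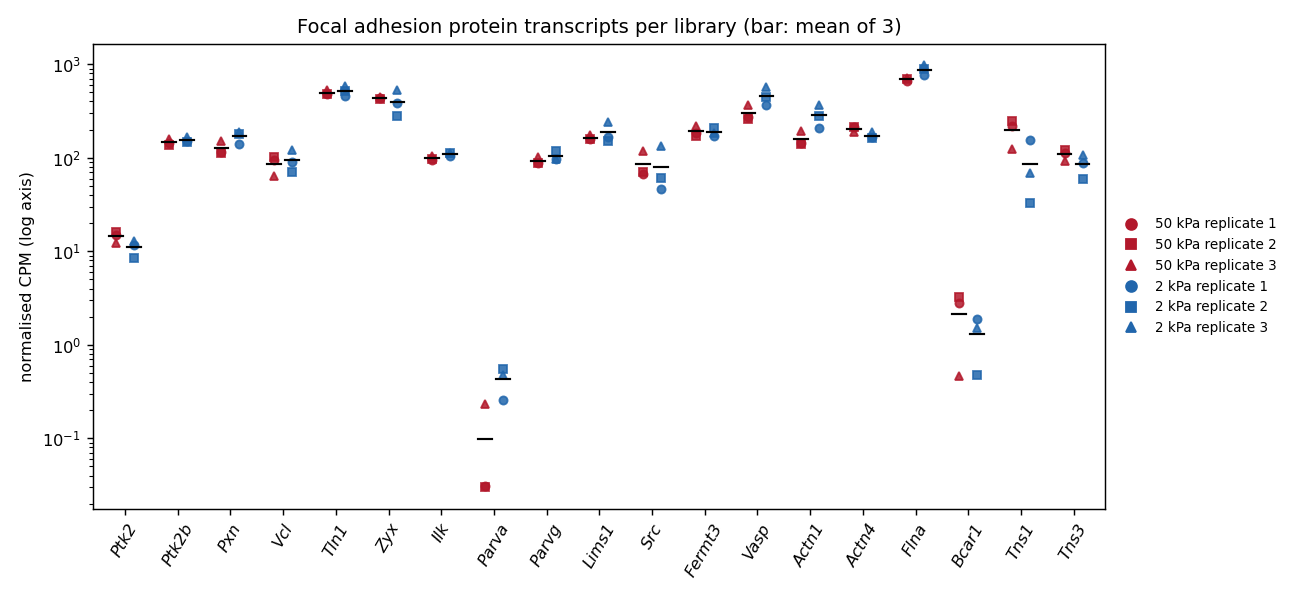
Normalised CPM (log axis) of the 19 focal adhesion proteins in each library, with 50 kPa left of 2 kPa and a bar at each mean of 3. Most groups overlap. Actn1, Flna and the untested Parva are lower and Actn4 is higher in every 50 kPa library. Parva and Bcar1 are the low genes.

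Low tension replicate 3 was the highest of the 6 libraries for 11 of the 18 tested focal adhesion proteins, and without it their median log2 fold change was 0.031. The median coefficient of variation was 13.03% under high tension and 21.1% under low tension.

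Of the other adhesion genes listed, 7 of 104 tested were called by edgeR, 2 of them higher and 5 lower, beside 3.45% of all tested genes (1.47% higher and 1.98% lower). The remaining integrin chains gave 2 lower and 0 higher among 5 tested, namely Itga2b and Itgb2l. Itgb2l, a relative of Itgb2 known in mouse neutrophils, stood at 2.86, 3.19 and 5.96 CPM under high tension and at 11.5, 21.5 and 20.9 CPM under low tension (-2.16 ± 0.38, edgeR adjusted p = 0.0444), and it is unknown how reads matching both relatives were counted. Itga7 and Itgb4 were at -1.28 ± 0.46 and -0.12 ± 0.33, each under 1 CPM.

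Further adaptors and paralogs gave 1 higher and 2 lower among 27 tested. Flnc, the filamin otherwise known from muscle, stood at 41.5, 36.7 and 37.4 CPM under high tension and at 20.2, 13.5 and 14.1 CPM under low tension, and rose 2.42-fold (1.27 ± 0.17, edgeR adjusted p = 0.0349). Skap2, an adaptor of β2 integrin signalling in mouse myeloid cells, stood at 99.6, 101 and 116 CPM under high tension and at 173, 171 and 169 CPM under low tension, and fell (-0.69 ± 0.10, edgeR adjusted p = 0.0349). Elmo1, which with Dock1 activates Rac, averaged 39.5 ± 1.67 CPM under high tension and 54.6 ± 1.34 CPM under low tension and fell (-0.47 ± 0.08, edgeR adjusted p = 0.0392), a call lost with total-count scaling and without the low-count filter. With the filter of at least 5 CPM in 3 libraries the calls of Flnc, Skap2 and Elmo1 were all lost. Tgfb1i1, the paxillin relative Hic-5, was at -1.63 ± 0.31 (edgeR adjusted p = 0.0503).

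Regulators of integrin activation gave 1 call among 19 tested. Rasgrp2, the exchange factor that activates Rap1 in platelets and neutrophils, stood at 2.36, 2.48 and 4.57 CPM under high tension and at 12.01, 29.6 and 12.01 CPM under low tension, and fell (-2.51 ± 0.47, edgeR adjusted p = 0.0486). It was not called by limma-voom, by the robust fit, with the replicate number as a block or with at least 5 CPM in 3 libraries. Rapgef3, Kank2 and Cd151 followed at -2.70 ± 0.61 (edgeR adjusted p = 0.0652), 0.87 ± 0.21 (0.0692) and 0.74 ± 0.22 (0.0995). Rasgrp2 was lower together with the megakaryocyte and neutrophil markers given above, and Itga2b is itself among the 9 megakaryocyte markers. The part of those cells in the values of Rasgrp2 and Itga2b was not tested.

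The podosome and actin core list gave 0 calls among 24 tested by edgeR, 6 at an unadjusted p under 0.05, 4 by DESeq2 and 0 by limma-voom. Over all tested genes the shares were 27.8% at an unadjusted p under 0.05 and 18% by DESeq2, so these counts were near the background. Its smallest p-values belonged to the leukocyte actin-binding gene Lsp1 (-0.57 ± 0.12, edgeR adjusted p = 0.0602), Tspan5 (0.90 ± 0.27), the Arp complex gene Actr3 (-0.40 ± 0.13) and Adam8 (0.50 ± 0.17). The list of Src family kinases, Syk and associated signalling genes, which also holds phosphatases and the adhesion receptor gene Pecam1, gave 0 calls among 11 by edgeR, 3 at an unadjusted p under 0.05, 1 by DESeq2 and 0 by limma-voom. Yes1 (-1.92 ± 0.43), Pecam1 (-0.89 ± 0.32), Lck (-0.79 ± 0.31) and Fyn (0.48 ± 0.21) led that list with edgeR adjusted p-values from 0.0624 to 0.201.

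Of 18 tested integrin ligands 1 was called. Tnc, which encodes tenascin C, a ligand of α9β1 and αVβ3, stood at 12.7, 11.3 and 11.1 CPM under high tension and at 0.751, 0.696 and 1.38 CPM under low tension. It rose by 3.64 ± 0.29 on the log2 scale (edgeR adjusted p = 0.0286), and its listed receptor chain Itga9 was too low to test. Spp1 encodes osteopontin, a ligand of αVβ3, and averaged 6425 ± 322 CPM under high tension and 2623 ± 1344 CPM under low tension (1.29 ± 0.40, edgeR adjusted p = 0.108). Vcam1, the ligand of α4β1, was at -2.12 ± 0.64 and the laminin chain Lama5 at -1.59 ± 0.57 (edgeR adjusted p = 0.104 and 0.14). Vtn, Fga, Fgb and Fgg, which encode vitronectin and fibrinogen, had 0 counts in every library.

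Each of these 7 calls was lost in 3 or more of the 6 fits with a library left out. Of the 7 genes 0 stayed called without high tension replicate 1, without high tension replicate 2 or without low tension replicate 2, and 1, Tnc, without low tension replicate 3. Without high tension replicate 3 Elmo1 and Rasgrp2 lost the call (adjusted p = 0.0571 and 0.0532), and without low tension replicate 1 Itga2b and Elmo1 did (0.0525 and 0.0515). With high tension replicates 1 and 2 summed 0 were called. Over all tested genes 0 were called in that fit, and likewise without high tension replicate 1 or 2, and 1 and 3 were called without low tension replicate 2 and low tension replicate 3. All 7 kept their direction in each fit with a library left out.

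**Figure D5:**
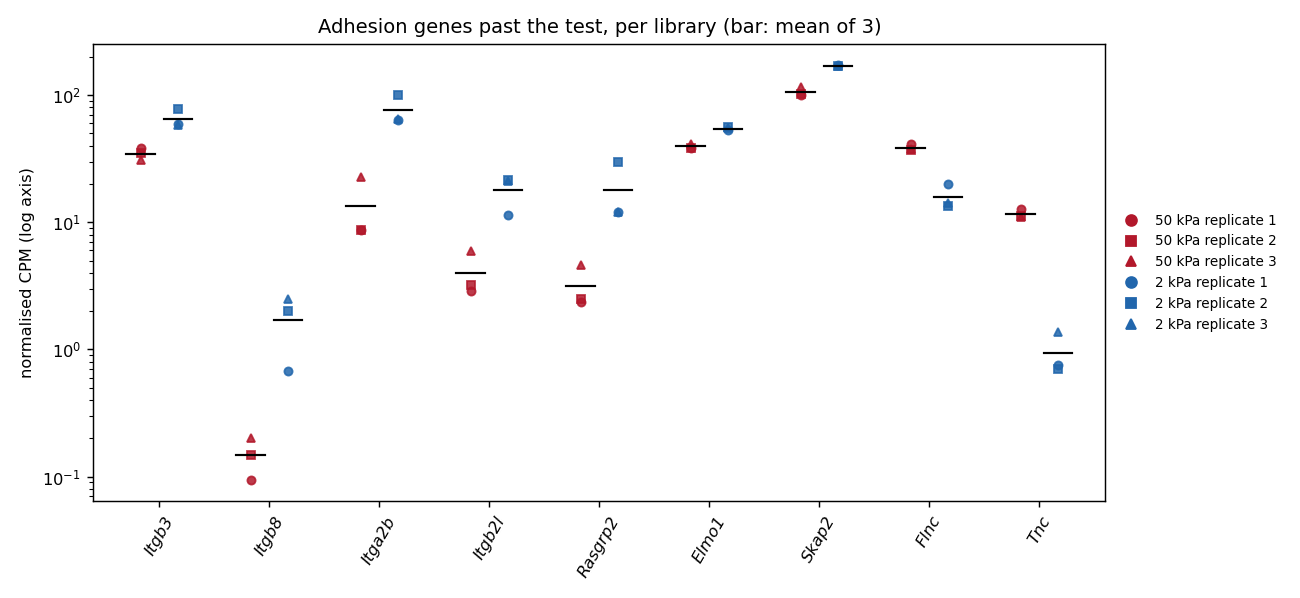
Normalised CPM (log axis) per library of the 9 adhesion genes called by edgeR, 2 of the followed set and 7 of the other lists, with 50 kPa left of 2 kPa and a bar at each mean of 3. Flnc and Tnc are higher and the other genes lower in every 50 kPa library.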

How the data were processed

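RNA-seq of polyadenylated RNA was available as 6 deposited tables of whole-number counts per gene symbol, made by the authors. The submitters' processing notes name FastQC 0.11.2, TopHat2 2.0.11, HTSeq 0.6.1p2, edgeR 3.16.5 and 3.8.6, and the builds mm10 and hg19, without a role or order. The labels name a directional library kit (NEBNext Ultra II). Neither an annotation nor whether counting used strand is stated there, so reads of overlapping genes on opposite strands may be mixed. Such exon overlap was annotated for 9 of the 37 genes. Beyond Actn1, Actn4, Vcl and Ilk it covered part of Itga4 (8.04% of exon length), Itgav (5.9%), Zyx (4.38%), Tln1 (3.67%) and Fermt3 (1.54%).

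The counts were analysed with edgeR 4.0.16 in R 4.3.3 (TMM scaling, quasi-likelihood test, genes kept by filterByExpr with a minimum count of 10 and a minimum total of 15). Of 24062 symbols 13155 were tested, with 3 libraries a group and a biological coefficient of variation of 24.6%. A standard error is the absolute log2 fold change divided by the square root of F. CPM per kb divides CPM by the union of exons in GENCODE M21 (GRCm38). Ratios and shares were compared by 2-sided exact permutation tests. The alternatives were RLE, upper-quartile and total-count scaling, no filter, at least 5 CPM in 3 libraries, DESeq2 1.42.0, limma-voom 3.58.1, a robust fit, a replicate block, each library left out, and high tension replicates 1 and 2 summed. The code was tested on simulated data. All members are described, and of each other adhesion list up to 4 genes with the smallest p-values were named; Ocstamp and the ligands at 0 counts were added after their values were seen. The members and lists were chosen with earlier results of these data known. A list of 10 fibroblast and stromal genes summed to 65.6 to 81.2 CPM under high tension and 59.6 to 206 CPM under low tension. Of the 10, 0 were called by edgeR, 5 had an unadjusted p under 0.05 and 4 were called by DESeq2. The shares over all tested genes were 3.45%, 27.8% and 18% in that order.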

Additional observations from a re-analysis of the deposited data

How the results depend on the processing

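Of 556 alternative values of the members' log2 fold changes 516 kept direction and side of the threshold, 19 turned direction, 14 lost a call and 7 gained one. All 14 lost calls were those of Itgb3 and Itgb8, the only members with a call to lose. Most members were uncalled, and some settings called 0 of all tested genes, so no member could gain a call there. The count of 516 is therefore no measure of how stable the calls were. No ratio or share turned direction in its 90 and 28 alternatives, and their exact tests could not pass the threshold in any setting. Of the integrin chains 0 were called with at least 5 CPM in 3 libraries, 6 by DESeq2, 1 by limma-voom (Itgb3), 0 with high tension replicates 1 and 2 summed, and 0 to 2 with a library left out. Of the focal adhesion proteins 1 was called by DESeq2. Of the other lists 1 of 87 tested genes was called with at least 5 CPM in 3 libraries, and 22 of 104 by DESeq2. With high tension replicates 1 and 2 summed 0 of them were called, and with a library left out 0 to 7. Over all genes the filter of at least 5 CPM in 3 libraries left 20 higher and 16 lower of 10088 tested. DESeq2 called 18% of all genes. The causes were not tested. With the replicate number as a block 3 chains (Itga4 added), 1 focal adhesion protein (Actn1) and 9 other genes were called, and 254 genes higher and 522 lower over all genes, against 194 and 260 without it. Deviations of same-numbered libraries correlated at 0.54, -0.11 and 0.49, and the numbers are not treated as pairing them. Total-count scaling moved the median of all genes to -0.16 and that of the focal adhesion proteins to -0.21, and turned Itgal to -0.076, Itgb1 to -0.034 and Fermt3 to -0.12. With a library left out the median of the integrin chains lay between -0.25 and 0.21. The uncalled genes that turned sign there ran from -0.35 to 0.22 for Itga5, -0.13 to 0.35 for Itgal, -0.26 to 0.21 for Itgav, -0.11 to 0.34 for Itgb1, -0.28 to 0.11 for Vcl, -0.15 to 0.016 for Tln1, -0.078 to 0.38 for Zyx, -0.33 to 0.045 for Lims1, -0.22 to 0.67 for Src and -0.087 to 0.11 for Fermt3. Depth limits Itgb8, Itga2, Itga9 and Parva, whose high tension libraries held at most 12 counts. With 3 libraries a group an exact permutation test cannot go below 0.1.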
